A study of Mus musculus with 6 samples.

Results

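The miR-26 family was followed in small RNA libraries of mouse c-kit+ cardiac progenitor cells. Its members were the 5 rows of the known miRNA table named mmu-miR-26a-5p, mmu-miR-26b-5p, mmu-miR-26a-1-3p, mmu-miR-26a-2-3p and mmu-miR-26b-3p, out of 1978 rows in all. They were matched by name, and all 5 passed the filter on low counts. The prefix mmu, for mouse, is left out below. Cardiac progenitor cells of this kind carry the receptor tyrosine kinase c-kit and were pulled from digested hearts of wild-type male C57BL/6 mice, 4 to 6 weeks old, with antibody-coated magnetic beads. The control group (3 libraries, 0 hours) was compared with the hypoxia group (3 libraries, 12 hours of low-oxygen culture), to ask which of these miRNAs differed with hypoxia. The treatment field reads hypoxia for both groups, so titles and times set the groups. The columns are headed 0 or 1 plus a letter, and 0 was read as the control, so every direction below rests on that reading. Whether each library had its own animal or culture is not stated in the labels, and p-values therefore reflect only how much these libraries varied. Hypoxia cannot be told apart from time in culture if the controls were not cultured as long. The labels' extraction text names exosomes where the design text names cells, and which of them was sequenced was not settled.

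The miR-26 genes lie in introns of the Ctdsp genes, which encode small phosphatases that act on the C-terminal domain of RNA polymerase II and on other proteins, among them the retinoblastoma protein. Each hairpin is cut into a guide arm (5p), which is loaded into Argonaute and represses mRNAs matching its seed, and a passenger arm (3p), most of which is degraded. Known targets of the guides include the histone methyltransferase Ezh2 and the BMP signal transducer Smad1, and in the heart and its vessels miR-26a is known for restraining endothelial growth and the potassium channel gene Kcnj2. Members of the family have also been listed among miRNAs that respond to hypoxia in cultured cells.

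The mature sequences, from RefSeq (GRCm38.p6; all 5 members matched), are shown because the arms differ in how many hairpins can make them. Capitals mark the seed, bases 2 to 8 from the 5′ end.
miR-26a-5p: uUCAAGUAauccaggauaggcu
miR-26b-5p: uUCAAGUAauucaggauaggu
miR-26a-1-3p: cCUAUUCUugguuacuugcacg
miR-26a-2-3p: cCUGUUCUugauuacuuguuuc
miR-26b-3p: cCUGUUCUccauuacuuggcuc
Both guides share the seed UCAAGUA, and no other of the 1679 mouse mature miRNAs in the RefSeq table had it. Counted from the 5′ end with miR-26a-5p as the reference, the guides differ by C11U and C21U over the 21 positions they share, and miR-26b-5p is 1 base shorter (21 against 22). The passengers fall into 2 seeds: miR-26a-2-3p and miR-26b-3p share CUGUUCU, while miR-26a-1-3p has CUAUUCU. With miR-26a-1-3p as the reference, that seed difference from miR-26a-2-3p is A4G. The CUGUUCU seed is also found in miR-6932-3p, with 7 counts over all 6 libraries, and in miR-7039-3p, with 0. Between miR-26a-2-3p and miR-26b-3p the substitutions U9C, G10C, U19G and U20C all lie outside the seed.

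The hairpins show which product is specific to a locus. Capitals mark the guide, then the passenger.
Mir26a-1: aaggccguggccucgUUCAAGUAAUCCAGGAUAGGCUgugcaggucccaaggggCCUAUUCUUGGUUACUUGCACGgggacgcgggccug
Mir26a-2: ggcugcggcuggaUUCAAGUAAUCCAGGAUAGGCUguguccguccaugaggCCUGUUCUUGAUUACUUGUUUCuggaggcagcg
Mir26b: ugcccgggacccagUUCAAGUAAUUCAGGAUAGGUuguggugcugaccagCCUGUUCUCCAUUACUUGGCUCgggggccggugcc
Mir26a-1 (chr9:119031796-119031885) and Mir26a-2 (chr10:126995530-126995613) give an identical guide, so the counts of miR-26a-5p cannot be divided between the loci, and only the passengers separate them. Mir26b lies at chr1:74394310-74394394. All 3 hairpins are on the plus strand, as are their hosts, and the spacer between the arms is 17 bases in Mir26a-1, 16 in Mir26a-2 and 15 in Mir26b. In the GENCODE M21 annotation of GRCm38, Mir26b sits in intron 4 of 6 of the coding transcript of Ctdsp1 that contains it, an intron of 564 bases. Mir26a-1 sits in an intron of 3283 bases of Ctdspl, the fifth of 7 or the fourth of 6 depending on the transcript. Mir26a-2 sits in intron 5 of 7 of Ctdsp2 (1946 bases), but 2 of the 4 annotated Ctdsp2 transcripts, 1 coding and 1 with a retained intron, have an exon over the hairpin.

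Known miRNAs gave 12285970 to 16975987 counts per library, and 619 of them passed the filter and were tested together. Levels are given in CPM, that is, counts scaled to a common library size by TMM, a factor that evens out library composition. Arms were counted by molecules of nearly the same length, but ligation and amplification can favour one sequence over another, so an order of levels between arms is an order of counts. Intervals are exact Clopper-Pearson 95% intervals and cover counting error only. The libraries carry the endothelial miR-126a arms at 22.4% to 23.5% of counts in control and 21.4% to 24.7% in hypoxia, and the 4 fibroblast and smooth muscle markers at 2.55% to 5.50% and 2.64% to 5.03%. The 5 cardiomyocyte markers summed to at most 0.0166%, the 6 blood markers to at most 0.00295% and the 4 epithelial markers to at most 0.000936% in any library. No listed marker was at 0 in all 6 libraries. For every marker list the summed shares of the groups overlapped, and none of these miRNAs is a marker of c-kit itself. Within letters, the cardiomyocyte sum was higher in hypoxia in 3 of 3 pairs (0.00848% and 0.0144% for A, 0.0153% and 0.0166% for B, 0.00791% and 0.0107% for C), and the other 4 lists went both ways. The 3 cardiomyocyte markers that were tested all lay above 0 (median log2 fold change 0.52), none was called, and the part of this in the results below was not tested.

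The family was dominated by its guides. In these bulk libraries, fewer cells of a type and less RNA per cell cannot be told apart. Together the 5 arms made up 1.94%, 2.05% and 2.35% of known miRNA counts in controls A to C and 2.15%, 2.10% and 2.32% after hypoxia (A to C), and the ranges overlapped. By mean CPM miR-26a-5p ranked 9 and miR-26b-5p 24 among the 619 tested miRNAs, whereas miR-26a-2-3p ranked 337, miR-26b-3p 451 and miR-26a-1-3p 557. That order, from miR-26a-5p down to miR-26a-1-3p, was the same in all 6 libraries. The neighbours miR-26b-3p and miR-26a-1-3p were the least separated: in control A they had 30 and 18 counts, and their intervals overlapped (0.000165% to 0.000349% and 8.68e-05% to 0.000232% of the library).

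**Figure D1:**
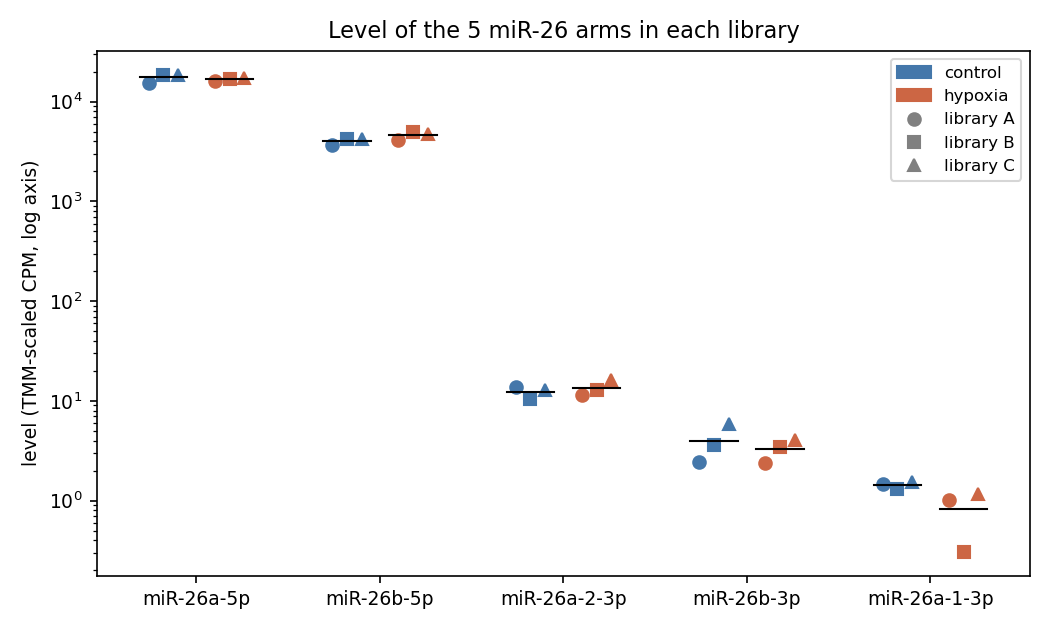
TMM-scaled CPM (log axis) of the 5 arms in each library; colours give the group, symbols the library letter and horizontal lines the group means. The guides lie at or above 3694 CPM and the passengers at or below 16.3 CPM, and hypoxia library B is the lowest point for miR-26a-1-3p at 0.307 CPM.

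miR-26a-5p, the most abundant arm, stood at 15584, 18700 and 18447 CPM in controls A, B and C, against 16032, 16780 and 17394 CPM in hypoxia A, B and C. All 3 hypoxia libraries lay inside the control range. Control libraries averaged 17577 ± 1730 CPM and hypoxia libraries 16735 ± 682 CPM (SD, n = 3 each), and the log2 fold change was -0.07 (SE 0.13, adjusted p = 0.99 in edgeR). miR-26b-5p, the guide from Ctdsp1, stood at 3694, 4207 and 4186 CPM in control and at 4103, 5028 and 4771 CPM in hypoxia, in the same order of letters. Hypoxia B and C were above every control library, while hypoxia A was below control B and C. That overlap depended on the TMM scaling. As a share of known miRNA counts, miR-26b-5p stood at 0.371%, 0.377% and 0.433% in control and 0.438%, 0.483% and 0.499% in hypoxia. On that scale every hypoxia library lay above every control library. The closest were hypoxia A (interval 0.434% to 0.441%) and control C (0.43% to 0.437%), and their intervals overlapped. The share of all tested miRNAs that separated on this scale was not counted. Its means were 4029 ± 290.1 CPM and 4634 ± 477 CPM (SD, n = 3 each), and the log2 fold change was 0.20 (SE 0.15, adjusted p = 0.92 in edgeR). Libraries with the same letter deviated together, and compared within letters miR-26b-5p was higher in hypoxia in 3 of 3 pairs (by 0.15 in pair A, 0.26 in pair B and 0.19 in pair C on the log2 scale), whereas miR-26a-5p gave 0.04, -0.16 and -0.08. How many of all tested miRNAs had the same sign in 3 of 3 pairs was not counted, so such agreement has no background here. With the letter as a block miR-26b-5p still did not pass (0.20, SE 0.09, edgeR unadjusted p = 0.061, adjusted p = 0.26). Leaving out hypoxia B lowered the value for miR-26b-5p to 0.11.

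None of the 5 members passed edgeR's quasi-likelihood test at an adjusted p of 0.05, where the background was 0% of all 619 tested miRNAs. With the letter block the members again gave 0 of 5, against 2.26% of all tested. At an unadjusted p under 0.05 there were also 0 of 5, without the block (all tested: 6.79%) and with it (all tested: 21.3%), and likewise 0 of 5 in DESeq2 (3.4% of the 1322 miRNAs it was run on) and in limma-voom (6.95% of 619). At the adjusted threshold these tools also called 0 of 5, against 0.0756% of all in DESeq2 and 0% in limma-voom. The members' median log2 fold change was -0.07, with 2 above and 3 below 0, beside a median of 0.01 with 317 above 0 over all 619. The SE of the guides (0.13 and 0.15) was smaller than the median SE of all tested miRNAs (0.28), and that of the 2 least abundant passengers larger (0.38 and 0.50).

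**Figure D2:**
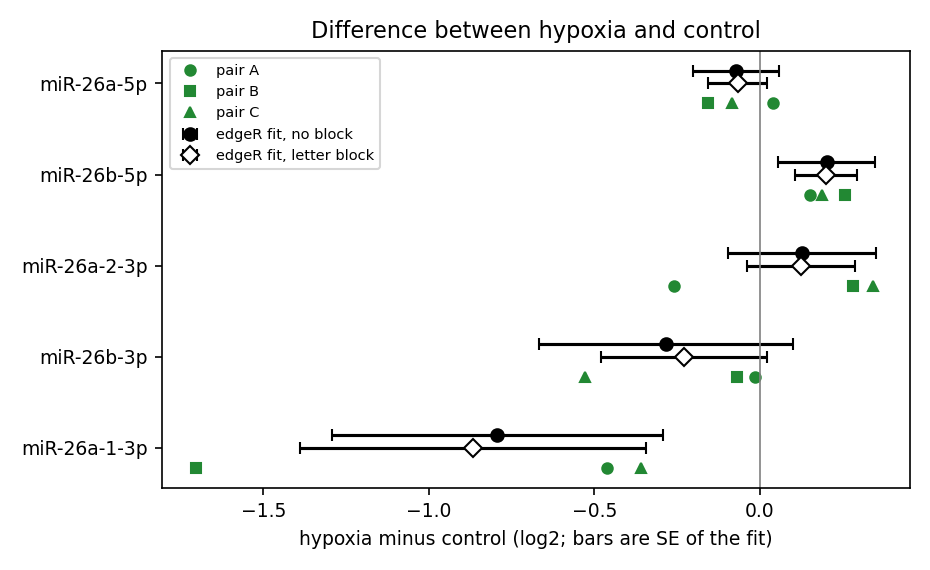
Log2 difference between hypoxia and control for each arm: filled circles are the edgeR fit without a block and open diamonds the fit with the library letter as a block (bars, SE), and green symbols are the 3 same-lettered pairs. miR-26b-5p lies above 0 in all 3 pairs, miR-26a-1-3p and miR-26b-3p lie below 0 in all 3, and no arm passed the test.

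The balance between the guides, unlike the TMM-scaled level of either one, did not overlap between the groups. As a share of library counts, miR-26b-5p alone did not overlap either, though the counting intervals of hypoxia A and control C did and no background was counted. A ratio of counts within a library does not depend on scaling between libraries. There were 4.22, 4.45 and 4.41 counts of miR-26a-5p for each count of miR-26b-5p in controls A, B and C, against 3.91, 3.34 and 3.65 in hypoxia A, B and C. Every hypoxia library lay below every control library, and hypoxia A was the closest to the controls. As a share of the guide counts, miR-26b-5p averaged 18.7% ± 0.436 over the controls and 21.7% ± 1.36 over the hypoxia libraries (SD, n = 3 each). Counting error was small beside this: the highest control library (A, 19.2%) had an interval of 19.0% to 19.3% and the lowest hypoxia library (A, 20.4%) one of 20.2% to 20.5%. The log2 ratio averaged 2.12 ± 0.0405 over the controls and 1.86 ± 0.114 over the hypoxia libraries (SD, n = 3 each), which is a difference of -0.27, or 0.832-fold (two-sided exact permutation test, p = 0.1, the smallest that 3 against 3 allows). Adjusted over the 5 ratios compared within the family, that p was 0.25 (exact permutation, Benjamini-Hochberg). Pair A differed by -0.11, pair B by -0.41 and pair C by -0.27, and leaving out each library in turn kept the difference between -0.32 and -0.21. As background, groups did not overlap for 13% of the ratios of miR-26a-5p to each of 616 other tested miRNAs (8.44% with hypoxia below control) and for 18.3% of those of miR-26b-5p. The separation of the guides' ratio is to be read against those shares.

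**Figure D3:**
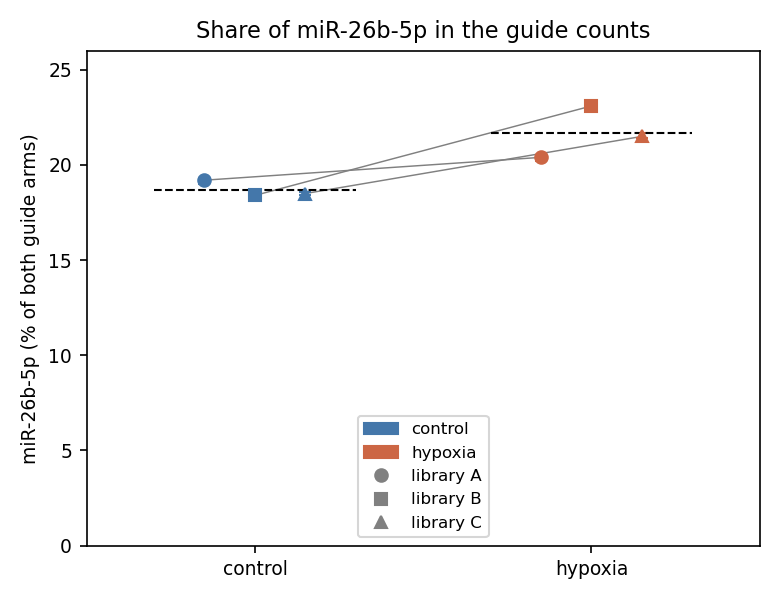
Share of miR-26b-5p in the summed counts of miR-26a-5p and miR-26b-5p for each library, in percent (vertical axis from 0); bars are 95% counting intervals, hidden behind most points, dashed lines are group means and grey lines join same-lettered libraries. The 3 hypoxia libraries (20.4% to 23.1%) lie above the 3 control libraries (18.4% to 19.2%).

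Counts on both sides of this ratio could be exchanged if mismatched reads were allowed. The guides differ by 1 substitution before their last bases (C11U), and how mismatched or multiply matching reads were handled is not stated in the sources. No other miRNA had counts within 1% of a member's in every library, so no member was a copy of another row. That check could not detect a partial exchange of reads between the guides.

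Among the passengers, miR-26a-2-3p, specific to the Ctdsp2 locus, was the most abundant. It had 171, 137 and 202 counts in controls A, B and C, against 192, 209 and 225 in hypoxia A, B and C, or 13.8, 10.5 and 12.9 CPM against 11.5, 12.8 and 16.3 CPM. The groups overlapped, and hypoxia C was the highest library. The means were 12.4 ± 1.70 and 13.6 ± 2.48 CPM (SD, n = 3 each), and the log2 fold change was 0.13 (SE 0.22, adjusted p = 0.99 in edgeR). Without hypoxia C the direction turned (-0.05).

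miR-26b-3p, the passenger from Ctdsp1, had 30, 47 and 93 counts in controls A, B and C, against 40, 56 and 56 in hypoxia. In CPM these were 2.43, 3.61 and 5.92 against 2.40, 3.43 and 4.06, so A was the lowest and C the highest library in both groups. The log2 fold change was -0.28 (SE 0.38, edgeR adjusted p = 0.99), opposite in sign to that of its own guide, and without control C it became 0.12. Relative to miR-26b-5p the passenger's log2 ratio differed by -0.41 between groups that overlapped (exact permutation p = 0.4). Within letters miR-26b-3p was lower in hypoxia in 3 of 3 pairs (by -0.01, -0.07 and -0.53 on the log2 scale for A, B and C), and so was its ratio to its guide (by -0.17, -0.33 and -0.73; exact sign-flip permutation p = 0.25, the smallest that 3 pairs allow).

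miR-26a-1-3p, specific to the Ctdspl locus, was the rarest arm and the one whose TMM-scaled levels did not overlap between groups. It had 18, 17 and 24 counts in controls A, B and C, against 17, 5 and 16 in hypoxia, or 1.46, 1.31 and 1.53 CPM against 1.02, 0.307 and 1.16 CPM. In CPM every hypoxia library lay below every control library, as in 5.49% of all tested miRNAs. That separation depended on the TMM scaling. As a share of library counts the groups overlapped, with hypoxia C (0.000121%) above control B (0.000117%). The means were 1.43 ± 0.113 and 0.830 ± 0.458 CPM (SD, n = 3 each), and the log2 fold change was -0.79 (SE 0.50, adjusted p = 0.87 in edgeR). Hypoxia B had only 5 counts, and without that library the value was -0.42. Before TMM scaling, 3 counts correspond to 0.177 to 0.244 CPM in these libraries.

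Only the passengers tell the miR-26a hairpins apart. miR-26a-1-3p made up 9.52%, 11.0% and 10.6% of the miR-26a passenger counts in controls A, B and C, against 8.13%, 2.34% and 6.64% in hypoxia A, B and C. The Ctdsp2 passenger was thus the major one in all 6 libraries, and more so in each hypoxia library than in any control. The log2 ratio of miR-26a-1-3p to miR-26a-2-3p averaged -3.11 ± 0.123 over the controls and -4.23 ± 1.01 over the hypoxia libraries (SD, n = 3 each), which is a difference of -1.12 (two-sided exact permutation test, p = 0.1, the smallest possible, and 0.25 adjusted over the 5 ratios). The counts were few: the interval of hypoxia A (4.81% to 12.7%) covered all 3 control shares, that of hypoxia C (3.84% to 10.6%) overlapped every control interval, and only that of hypoxia B (0.763% to 5.37%) lay below them. Without hypoxia B the difference was -0.55. Ratios of miR-26a-1-3p to each other tested miRNA gave groups that did not overlap, with hypoxia below control, in 36.2% of 616 cases, so the separation was common to many ratios with this arm. A passenger's share also depends on how fast each passenger is degraded and how well it is cloned, which was not measured, so it is not a measure of transcription of the host genes.

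**Figure D4:**
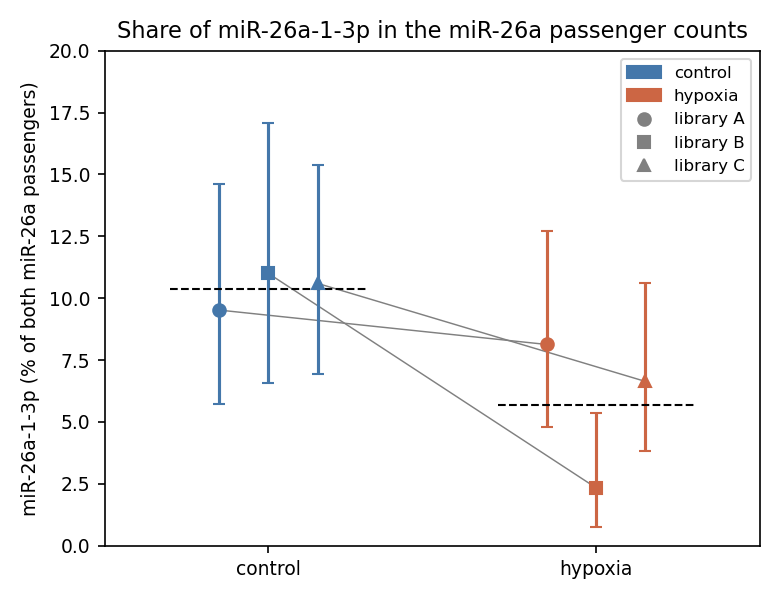
Share of miR-26a-1-3p in the summed counts of both miR-26a passengers for each library, in percent; bars are 95% counting intervals, dashed lines are group means and grey lines join same-lettered libraries. Hypoxia library B (2.34%) is the lowest, and the intervals of hypoxia A and C overlap those of the controls.

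Passengers were scarce next to their guides at both kinds of locus. For every 10000 counts of miR-26a-5p there were 9.82, 6.33 and 7.80 counts of its passengers in controls A, B and C, against 7.84, 7.82 and 10.1 in hypoxia. For every 10000 counts of miR-26b-5p there were 6.58, 8.59 and 14.1 counts of miR-26b-3p in control and 5.86, 6.83 and 8.52 in hypoxia. The groups overlapped for both, and the log2 ratio of passengers to guide differed by 0.12 for miR-26a (exact permutation p = 0.5). The log2 ratio of miR-26b-3p to the miR-26a passengers differed by -0.26, again between overlapping groups (exact permutation p = 0.6). Adjusted over the 5 ratios, these 2 and that of miR-26b-3p to its guide gave 0.6 each (exact permutation, Benjamini-Hochberg). Summed over all libraries the rates were 8.19 for miR-26a and 8.43 for miR-26b, although the miR-26a guide was about 4 times as abundant. Of 125 hairpins with both arms listed under 1 name and at least 10000 counts in all, the median was 201 minor-arm counts per 10000 major-arm counts, and miR-26b was the hairpin with the fifteenth lowest value. Hairpins with a lower value than miR-26a numbered 14.

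**Figure D5:**
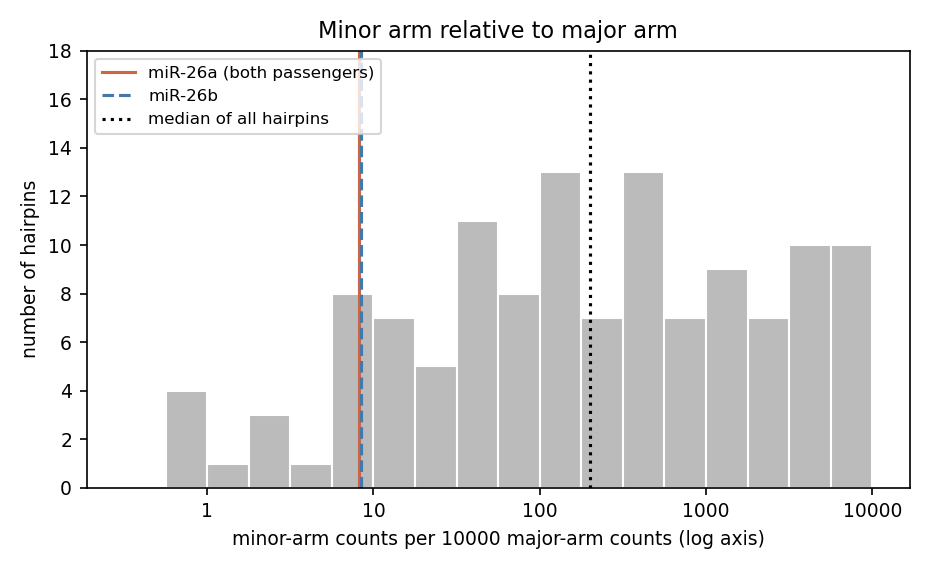
Number of hairpins by minor-arm counts per 10000 major-arm counts (log axis), over 125 hairpins with at least 10000 counts; miR-374b, with 0 minor-arm counts, is not drawn. The miR-26a line (8.19) and the miR-26b line (8.43) lie close together, far to the left of the median (201).

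Profiles over the libraries were also compared. Over the 6 libraries the log2 CPM of miR-26a-5p and miR-26b-5p correlated with Pearson's r of 0.29, given as a description of 6 points from 2 groups. Among 359 other miRNAs with a mean of at least 10 CPM, those whose profile was most like that of miR-26a-5p were miR-484 (r = 0.976), miR-23b-3p (0.975) and miR-330-3p (0.956). Those most like miR-26b-5p were miR-34a-5p (r = 0.921), miR-195a-5p (0.890) and miR-23a-3p (0.854). The first 3 had log2 fold changes of -0.11, -0.24 and -0.17, and the other 3 of 0.40, 0.24 and 0.17. These 6 were chosen on the same libraries, the difference between the groups included, so the signs partly follow from the choice.

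Beside the family stood 17 other miRNAs that the literature lists as regulated by hypoxia. Without the block edgeR called 0 of 17 (all tested: 0%), with 3 at an unadjusted p under 0.05 (all tested: 6.79%). With the block it called 1 (all tested: 2.26%), with 4 at that unadjusted p (all tested: 21.3%). The call was miR-210-3p, a target of the hypoxia-inducible factors (log2 fold change 1.19, SE 0.20, edgeR adjusted p = 0.024). It was lost without pair A (0.86, edgeR adjusted p = 0.054) and without pair C (1.25, edgeR adjusted p = 0.47). Of the 17, 12 lay above 0 and 5 below, with a median of 0.08, beside 0.01 over all tested miRNAs. Groups did not overlap for 4 of the 17, all with hypoxia above control, against 7.43% of all tested miRNAs in that direction. For the guides of the miR-26 family the corresponding number was 0 of 2, all on TMM-scaled CPM.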

How the data were processed

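The values are unnormalized read counts per known mature miRNA as the authors deposited them, in 1 column for each library per the file headers. Per the submitters' processing notes, bcl2fastq 2.0, DESeq2 and mm10 were used, in roles that are not stated. No aligner, counting program or miRNA release is given in the sources used here. Counts were filtered with filterByExpr, scaled by TMM and tested over all 619 miRNAs left with edgeR 4.0.16 (quasi-likelihood test, Benjamini-Hochberg, R 4.3.3). The edgeR fit was first run on simulated data, and the outcome of that run is not reported here. The SE was taken as the size of the log2 fold change over the root of its F statistic. Profiles were compared on log2 CPM with a prior count of 2. Alternatives used other scalings, no filter, DESeq2 1.42.0, limma-voom (limma 3.58.1), a letter block, and each library or pair left out. Ratios were compared by exact permutation of libraries.

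Column letters match no replicate number in the titles. Deviations from the group means of same-lettered libraries correlated at 0.52 (A), 0.43 (B) and 0.28 (C), and those of other pairs from -0.44 to 0.12, so the letters were taken to pair the libraries. Deviations within a group sum to 0, so higher correlations of same-lettered libraries go with lower ones of the other pairs. That pairing is read from column names and counts, not from the labels, and the block fits use the same counts. The named miRNAs were the 5 members, the 3 most alike profiles for each guide (mean of at least 10 CPM), and members of fixed lists (miRNAs regulated by hypoxia, of Pank introns, guides made by 2 hairpins, and cell type markers). Members and lists were chosen with earlier results of these data known. Predicted miRNAs were not used here.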

Additional observations from a re-analysis of the deposited data

How the results depend on the processing

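Across 16 alternative fits none of the 5 members passed at an adjusted p of 0.05. The sign was the same in all 16 for miR-26a-5p (edgeR, DESeq2 or limma adjusted p from 0.44 to 1.00), miR-26b-5p (0.24 to 1.00) and miR-26a-1-3p (0.40 to 1.00). With each library left out in turn, miR-26a-2-3p ran from -0.049 (without hypoxia C) to 0.23 and miR-26b-3p from -0.56 to 0.12 (without control C), so leaving out 1 library could turn their direction. Without control B, miR-26a-2-3p was 0.0016. With the letter block it was 0.31, 0.018 and 0.0011 without pair A, B or C. Scaling to library size only brought miR-26a-5p to -0.0030 and miR-26b-5p to 0.26 (edgeR unadjusted p = 0.076, adjusted p = 0.81). Of the ratios, that of the guides kept its sign in 8 of 8 alternatives, and so did miR-26a-1-3p to miR-26a-2-3p (leave-one-out -1.49 to -0.55). Because the groups did not overlap for these ratios, leaving out 1 library could change the size but not the sign. The ratio of miR-26b-3p to its guide also kept its sign in 8 of 8 (leave-one-out -0.658 to -0.105), although its groups overlapped. The ratio of the miR-26a passengers to their guide ran from -0.040 (without control B; -0.0048 without hypoxia C) to 0.28, and that of miR-26b-3p to the miR-26a passengers from -0.65 to 0.042 (without control C). The replicate block gave the same signs for all members and changed no member's call. Its log2 fold changes were -0.07, 0.20, -0.87, 0.12 and -0.23 for miR-26a-5p, miR-26b-5p, miR-26a-1-3p, miR-26a-2-3p and miR-26b-3p. For the ratios, the mean difference within pairs equals the difference between group means by construction, so its sign could not differ. Over all known miRNAs, the number called was 0 (42 at an unadjusted p under 0.05), 4 without the filter, 1 in DESeq2, 0 in limma-voom and 14 with the replicate block, which became 0, 23 and 0 without pair A, B or C; the cause was not tested. Depth limits the passengers most, since miR-26a-1-3p had 5 to 24 counts per library.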

Other observations

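The family of miR-103 and miR-107 has a comparable layout, with guides that lie in introns of the paralogous pantothenate kinase genes, and miR-103-3p made by 2 hairpins. Control libraries averaged 1431 ± 78.8 CPM of miR-103-3p and hypoxia libraries 1639 ± 105 CPM, and for miR-107-3p these were 126 ± 2.59 and 167 ± 6.50 CPM (SD, n = 3 each), with log2 fold changes of 0.20 (SE 0.15) and 0.40 (SE 0.17) that did not pass edgeR (adjusted p = 0.92 and 0.72). The log2 ratio of miR-103-3p to miR-107-3p averaged 3.50 ± 0.0511 over the controls and 3.30 ± 0.142 over the hypoxia libraries (SD, n = 3 each), which differ by -0.21 (two-sided exact permutation test, p = 0.1, the smallest possible). For the miR-26 guides the difference was -0.27, in the same libraries, and in both families the less abundant guide had the higher log2 fold change. Within letters the ratio of miR-103-3p to miR-107-3p differed by -0.0086 for A, -0.25 for B and -0.37 for C, so pair A gave the smallest difference in both families. Whether the families differ was not tested. How often other pairs of guides show such a difference was not counted, so the likeness of the families has no background here.

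Of 15 guides with hairpin-specific passengers under 2 names, 14 had passenger counts in every library. The Ctdsp2 passenger held on average 92.0% of the miR-26a passenger counts, the eighth highest share of a major passenger among the 14. By passenger counts per 10000 guide counts miR-26a-5p (8.19) was the second lowest, after miR-218-5p (2.66). At the other end, miR-24-3p had 1110 and miR-181a-5p 994.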
